A study of Mus musculus with 12 samples.

Results

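The genes described here are 33 mouse genes of homologous recombination and of the response to replication stress. They were chosen by name, with earlier results of these data known, and located through their Ensembl identifiers among the 35709 gene rows of the deposited table, where all 33 were found. RNA-seq was made from primary hepatocytes of C57BL/6J males, 8 to 10 weeks old. The mice had been given 1 intraperitoneal dose of CCl4 (carbon tetrachloride, which injures hepatocytes) in olive oil, 0.4 mg for each g of mouse, or oil alone, and were studied 48 h later. The 4 groups of 3 samples were Alb-R3 CCl4, Alb-Cre CCl4, Alb-R3 oil and Alb-Cre oil. Alb-R3 mice lack the receptor gene Fgfr3 in hepatocytes, and Alb-Cre mice, which carry Cre recombinase under the hepatocyte promoter of albumin, were their controls. Livers were perfused with Liberase, and the cells were enriched by differential centrifugation and a Percoll gradient. The labels do not say that each sample came from a separate animal, and the spread behind the p-values may therefore be technical in part.

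Homologous recombination mends double-strand breaks and broken replication forks by copying the sister chromatid, and so works mainly during and after DNA synthesis. BRCA1, BARD1, PALB2 and BRCA2 prepare resected DNA ends for strand invasion, while Fanconi anemia proteins open crosslinks that block forks, and the kinases ATR and ATM signal the damage to CHEK1 and CHEK2. Adult hepatocytes are mostly outside the cell cycle and re-enter it after an injury such as CCl4, so repair genes tied to DNA synthesis are usually low in the resting liver.

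Because many genes of DNA synthesis and repair carry sites for E2F transcription factors, the promoters of the members were searched for the words TTTCCCGC, TTTGGCGC, TTTCGCGC and TTTGCCGC on both strands. RefSeq promoters on the build GRCm38.p6, from 250 bases before to 50 bases after each start, were held for 25 of the 33 genes, and Pif1, Tipin, Rmi2, Tonsl, Fancd2, Rad54b, Xrcc2 and Exo1 had none in the table used. A word was present in 5 of the 25 genes (20%), against 704 of 27025 genes (2.6%) with a promoter in the table. The sequences below are those 5 genes, with both starts of Rad51c, followed by Atm, a member that did not pass the test after CCl4 and whose window holds none of the words. Capitals mark the matched word, which reads in reverse complement where it lies on the other strand.
Bard1, chr1:71102923-71103222, minus strand: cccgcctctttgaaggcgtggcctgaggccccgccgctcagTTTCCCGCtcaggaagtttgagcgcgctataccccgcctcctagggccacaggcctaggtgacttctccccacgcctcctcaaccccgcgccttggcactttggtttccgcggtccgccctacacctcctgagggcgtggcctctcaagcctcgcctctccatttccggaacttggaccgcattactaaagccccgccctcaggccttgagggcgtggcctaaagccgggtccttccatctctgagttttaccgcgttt
Brca2, chr5:150522371-150522670, plus strand: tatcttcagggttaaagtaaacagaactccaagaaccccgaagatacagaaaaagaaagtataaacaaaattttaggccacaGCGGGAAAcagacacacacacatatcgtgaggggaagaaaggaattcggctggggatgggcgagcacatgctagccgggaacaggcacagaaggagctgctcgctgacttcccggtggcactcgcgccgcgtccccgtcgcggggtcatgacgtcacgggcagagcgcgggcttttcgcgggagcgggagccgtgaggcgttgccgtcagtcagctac
Chek2, chr5:110839733-110840032, plus strand: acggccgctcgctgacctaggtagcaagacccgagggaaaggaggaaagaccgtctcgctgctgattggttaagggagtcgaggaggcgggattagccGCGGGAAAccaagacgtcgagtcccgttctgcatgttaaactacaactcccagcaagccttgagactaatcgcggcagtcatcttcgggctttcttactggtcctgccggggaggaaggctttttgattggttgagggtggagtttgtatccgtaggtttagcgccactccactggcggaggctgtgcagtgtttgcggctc
Topbp1, chr9:103305077-103305376, plus strand: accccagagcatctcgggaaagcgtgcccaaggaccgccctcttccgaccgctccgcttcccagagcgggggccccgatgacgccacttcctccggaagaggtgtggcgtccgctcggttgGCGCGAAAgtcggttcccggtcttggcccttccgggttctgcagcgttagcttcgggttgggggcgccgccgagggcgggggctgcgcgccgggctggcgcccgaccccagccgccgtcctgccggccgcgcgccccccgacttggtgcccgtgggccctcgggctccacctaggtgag
Rad51c outer start, chr11:87404905-87405204, minus strand: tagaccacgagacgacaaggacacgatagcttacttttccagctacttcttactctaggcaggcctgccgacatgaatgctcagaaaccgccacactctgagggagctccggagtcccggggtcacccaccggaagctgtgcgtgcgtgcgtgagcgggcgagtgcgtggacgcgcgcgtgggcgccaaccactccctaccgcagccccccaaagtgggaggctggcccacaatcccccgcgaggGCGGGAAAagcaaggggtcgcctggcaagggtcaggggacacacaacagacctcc
Rad51c inner start, chr11:87404457-87404756, minus strand: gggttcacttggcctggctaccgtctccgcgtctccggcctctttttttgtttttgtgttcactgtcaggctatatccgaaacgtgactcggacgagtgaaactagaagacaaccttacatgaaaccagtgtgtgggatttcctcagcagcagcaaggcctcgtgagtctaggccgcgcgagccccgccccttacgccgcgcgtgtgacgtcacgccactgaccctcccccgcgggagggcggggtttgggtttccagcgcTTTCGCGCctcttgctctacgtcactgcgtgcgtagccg
Atm, chr9:53536622-53536921, minus strand: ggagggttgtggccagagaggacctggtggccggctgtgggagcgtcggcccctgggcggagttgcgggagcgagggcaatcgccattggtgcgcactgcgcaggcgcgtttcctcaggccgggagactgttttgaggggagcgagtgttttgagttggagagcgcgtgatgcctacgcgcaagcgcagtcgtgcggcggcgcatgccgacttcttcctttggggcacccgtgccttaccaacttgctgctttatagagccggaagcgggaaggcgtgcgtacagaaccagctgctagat

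The word began 209 bases before the start of Bard1, 168 before that of Brca2, 152 before that of Chek2 and 129 before that of Topbp1. In Rad51c it began 5 bases before the outer start and 11 bases after the inner one. All 5 genes rose after CCl4 in both genotypes, as did 19 of the 25 members with a promoter. Of those 19, 5 held a word, and of the 5 members that passed in neither genotype, 0 did. So few genes cannot tell the 2 sets apart, and most members that passed also lacked a word. These matches are letters in a window and not measured binding. The cell cycle homology word TTTGAA, also searched on both strands, was in 4 of 25 members (16%) against 20.2% of all genes with a promoter, and the word CCAAT in 13 of 25 (52%) against 41.1%. No match of an E2F word overlapped another match. The members' promoters had a median GC content of 57.7% and a median of 21.5 CpG sites, against 52.7% and 7 over all promoters. Each E2F word contains a CpG, and the share of genes with a word was not compared at equal CpG content.

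Each sample held between 27215000 and 38828900 normalized counts in all. One library stood apart: mitochondrially encoded genes took 32.3% of the normalized counts of Alb-R3 CCl4 replicate 1, against 6.22% to 12.8% in the other 11. Fgfr3, the targeted gene, measured 372.1 to 477.7 normalized counts in Alb-R3 CCl4 samples and 705.7 to 950.9 in Alb-Cre CCl4 samples. After oil the genotypes overlapped, at 523.1 to 1109 in Alb-R3 and 734.9 to 988.1 in Alb-Cre, and neither difference passed the test (limma adjusted p = 0.252 after CCl4 and 1 after oil). The highest Fgfr3 value of all belonged to the library labelled Alb-R3 oil replicate 3, against its label. The exons removed in Alb-R3 are not stated in the labels, so the check of the labels is incomplete.

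CCl4 raised most of the repair genes in both genotypes. In Alb-R3, 27 of the 33 genes were higher after CCl4 than after oil, where 17.8% of the 20244 genes tested were called in either direction and 10.9% higher. In Alb-Cre 28 were higher, where 4.45% of the tested genes were called and 3.46% higher. None was called lower in either genotype, where 6.92% of all genes in Alb-R3 and 0.988% in Alb-Cre were. The median log2 fold change over the 33 genes was 2.61 in Alb-R3 and 2.42 in Alb-Cre, beside 0.00 and 0.02 over all genes tested. The same 27 genes passed in both genotypes, Blm passed in Alb-Cre alone, and Rad51b, Xrcc3, Atr, Atm and Parp1 passed in neither. As the samples are bulk RNA, a change in the number of cells that express a gene and a change in RNA per cell cannot be told apart. Every CCl4 sample lay above every oil sample for 27 genes in Alb-R3, against 18.1% of all tested genes, and for 31 in Alb-Cre, against 13.3%. All 33 genes passed the filter on low values, Pif1 and Rad54l only through their CCl4 samples. The direction of the calls of these 2 genes was therefore tied to the filter, and they add no separate support to the counts.

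**Figure D1:**
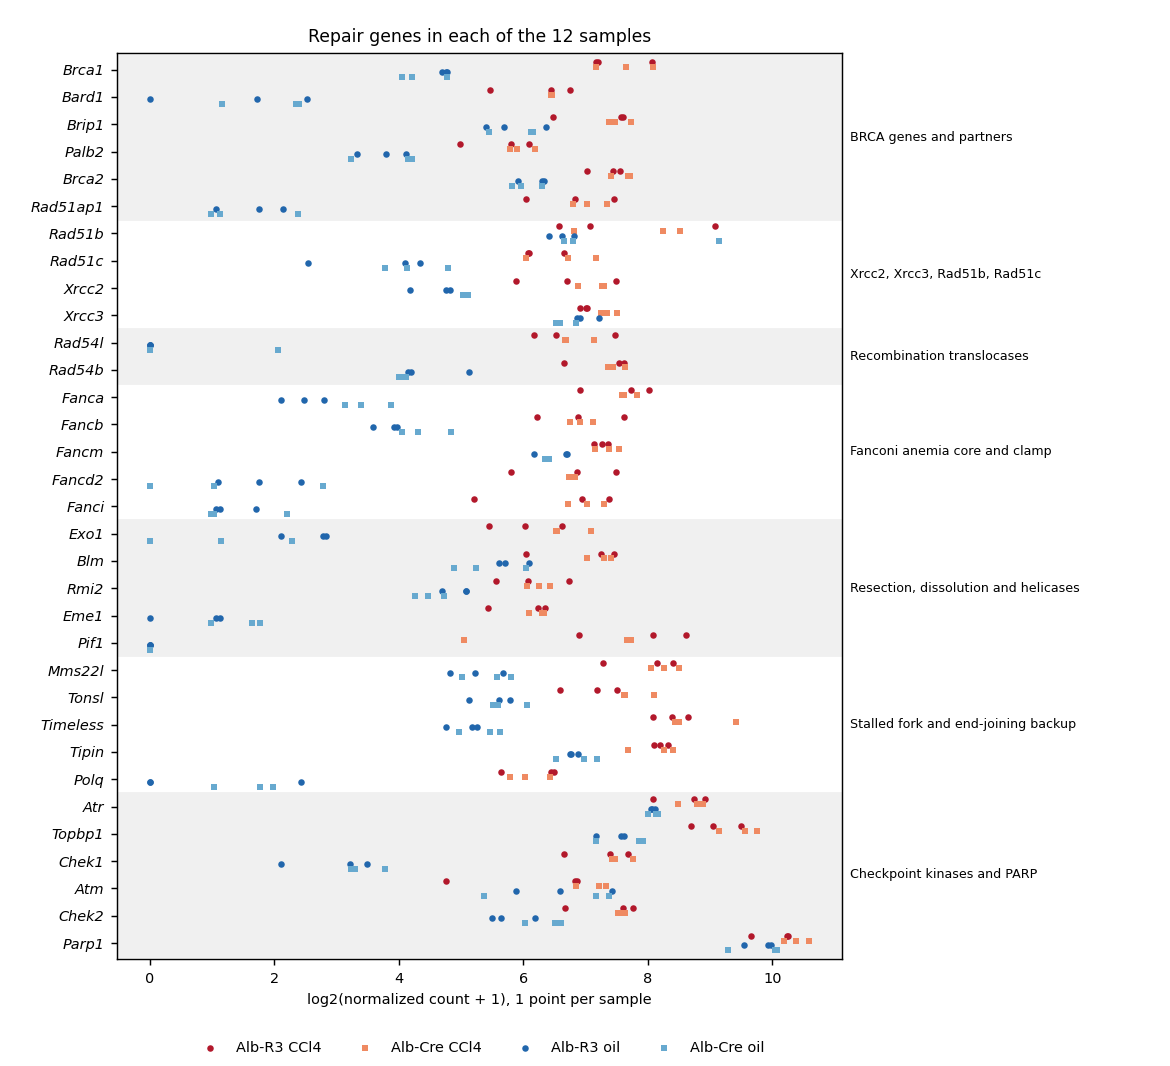
The 33 repair genes (rows, by role) in each of the 12 samples, as log2(normalized count + 1), with 1 point per sample and 1 colour and marker shape per group. For most genes the CCl4 points lie to the right of the oil points in both genotypes, while the treatments overlap for Rad51b and Atm in both and for Xrcc3, Blm, Atr and Parp1 in Alb-R3.

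Without Alb-R3 CCl4 replicate 1, the library with the high mitochondrial share, 28 of the 33 genes passed in Alb-R3, with a median of 2.71, and 30 in Alb-Cre, with a median of 2.42. None was called lower. Atr then passed in both genotypes (0.75, limma adjusted p = 0.00983 in Alb-R3, and 0.63, adjusted p = 0.0254 in Alb-Cre). Blm passed in Alb-R3 (1.55, adjusted p = 0.00676) and Xrcc3 in Alb-Cre (0.72, adjusted p = 0.0461), while Fancm no longer passed in Alb-R3 (0.68, adjusted p = 0.0724). Over all genes, 1950 were then called higher in Alb-R3 and 977 in Alb-Cre, of 19818 tested.

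Markers of other liver cells also moved after CCl4 in Alb-R3. All 12 Kupffer cell and macrophage markers were called higher there, and their summed normalized counts were 2677 to 14010 in Alb-R3 CCl4, 1603 to 2069 in Alb-Cre CCl4, 915.3 to 1358 in Alb-R3 oil and 1426 to 2841 in Alb-Cre oil. The 14010 belonged to Alb-R3 CCl4 replicate 1, and 9 of the 12 passed without it. Stellate cell and fibroblast markers were higher for 10 of 12 in Alb-R3 and 4 of 12 in Alb-Cre, with sums of 1472 to 3878, 2191 to 2926, 662.2 to 852.4 and 1480 to 1644 in the same order of groups, and Acta2 was at 0 throughout Alb-Cre oil. Endothelial markers were higher for 8 of 10 in Alb-R3 and 0 of 10 in Alb-Cre, with sums of 2266 to 3734, 2589 to 3935, 1419 to 1463 and 2434 to 3000. The stellate and endothelial sums overlapped between the genotypes after CCl4, but after oil all Alb-R3 sums lay below all Alb-Cre sums. The median log2 difference of the endothelial markers after oil was -1.11, and 1 of 10 (Ptprb) was called lower, as were 0 of 12 stellate markers. Lymphocyte markers passed for 3 of 12 in Alb-R3 and 0 of 12 in Alb-Cre, with sums of 52.1 to 336.9, 37.9 to 40.8, 16.6 to 35.7 and 36.0 to 64.7, with Klrb1c at 0 throughout Alb-Cre CCl4 and Alb-R3 oil, Gzma throughout both oil groups and Nkg7 throughout Alb-R3 oil. Monocyte and neutrophil markers passed for 2 of 9 in Alb-R3 and 0 of 9 in Alb-Cre (306.2 to 4422, 228.7 to 495.7, 147.6 to 160.9 and 194.4 to 350.4), with Fcnb at 0 in the last 3 groups and Mpo in Alb-Cre oil. Cholangiocyte markers passed for 2 of 7 in Alb-R3 and 1 of 7 in Alb-Cre (1044 to 6759, 788.7 to 1649, 826.3 to 893.0 and 663.0 to 862.8), with Cftr at 0 throughout all groups but Alb-Cre CCl4 and Krt19 throughout Alb-R3 oil. Of 12 hepatocyte markers, Tdo2 and Tat fell in Alb-R3 and none was called in Alb-Cre (2528000 to 3863000, 3796000 to 4600000, 3551000 to 4197000 and 3230000 to 4260000). The 2528000 belonged to Alb-R3 CCl4 replicate 1, as did the highest lymphocyte, monocyte and cholangiocyte sums of 336.9, 4422 and 6759. Without that library 0 hepatocyte markers were called in Alb-R3, and lymphocyte markers passed for 1 of 10. Of 5 erythroid markers tested, Alas2 fell in Alb-R3 (711.7 to 1624, 1660 to 2531, 3008 to 3538 and 1896 to 4165). In Alb-Cre, where 28 of the repair genes rose, the markers called were 4 stellate ones and the cholangiocyte marker Spp1. In the fit without Alb-R3 CCl4 replicate 1, 5 stellate, 1 macrophage and 1 cholangiocyte marker were called higher in Alb-Cre, and 1 hepatocyte marker lower. The part of these cells in the repair gene result was not tested.

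The 6 genes grouped as Brca1, Brca2 and their partners all rose in both genotypes, with a median log2 fold change of 2.31 in Alb-R3 and 2.69 in Alb-Cre. Brca1 (ENSMUSG00000017146, chromosome 11, 101488764 to 101551955, minus strand), a ubiquitin ligase that helps to prepare DNA ends, had 142, 146 and 268 normalized counts in Alb-R3 CCl4 samples 1 to 3 and 26.3, 24.9 and 26.0 in Alb-R3 oil. In Alb-Cre it had 199, 271 and 143 after CCl4 and 26.2, 17.5 and 15.5 after oil. Every CCl4 sample lay far above the oil samples of its genotype, and the log2 fold change was 2.74 ± 0.34 (limma SE, n = 3 per group, adjusted p = 0.000144) in Alb-R3 and 3.29 ± 0.34 (adjusted p = 5.4e-05) in Alb-Cre. Brca2 (ENSMUSG00000041147, chromosome 5, 150522630 to 150570329, plus strand), which acts on the single-stranded DNA of resected ends, was the least changed of the 6. It had 129, 173 and 187 normalized counts in Alb-R3 CCl4, against 59.3, 78.2 and 79.3 in Alb-R3 oil, and 203, 209.6 and 168 in Alb-Cre CCl4, against 55.6, 61.5 and 77.5 in Alb-Cre oil. The treatments did not overlap, and the change was 1.16 ± 0.24 (adjusted p = 0.00535) in Alb-R3 and 1.57 ± 0.24 (adjusted p = 0.00134) in Alb-Cre.

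The largest change of the 6 was that of Rad51ap1 (ENSMUSG00000030346, chromosome 6, 126923050 to 126939587, minus strand), a DNA-binding protein that helps strand invasion. It had 65.0, 113 and 174 normalized counts in Alb-R3 CCl4 and 1.09, 3.40 and 2.37 in Alb-R3 oil, and 128, 162 and 111 in Alb-Cre CCl4 and 4.20, 0.972 and 1.19 in Alb-Cre oil. It was close to undetected in every oil sample, and its log2 fold change was 5.12 ± 0.51 (adjusted p = 2.75e-05) in Alb-R3 and 5.56 ± 0.51 (adjusted p = 2.6e-05) in Alb-Cre. Bard1, the partner of Brca1, changed by 4.81 ± 0.62 in Alb-R3 and 4.48 ± 0.62 in Alb-Cre, a larger change than that of Brca1 in both. Palb2, the bridge between Brca1 and Brca2, rose by 1.88 ± 0.42 and 2.09 ± 0.42, and Brip1, a helicase that binds Brca1, by 1.40 ± 0.35 and 1.62 ± 0.35 in the same genotypes. The calls of Brip1 and Palb2 depended on single libraries. Brip1 did not pass in Alb-R3 without oil replicate 1 or 3 or CCl4 replicate 2 or 3 of that genotype (adjusted p 0.0555 to 0.0611), nor in Alb-Cre without oil replicate 3 or CCl4 replicate 2 or 3 (0.0612 to 0.0803). Palb2 did not pass in Alb-Cre without oil replicate 1 or CCl4 replicate 2 (0.0513 and 0.0550).

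Rad51b, Rad51c, Xrcc2 and Xrcc3, relatives of each other that act together in complexes during strand invasion, split into a pair that rose and a pair that did not pass. Rad51c (ENSMUSG00000007646, chromosome 11, 87376645 to 87404954, minus strand), shared by both complexes, had 66.2, 67.2 and 99.2 normalized counts in Alb-R3 CCl4 and 19.2, 16.1 and 4.83 in Alb-R3 oil. The Alb-Cre samples had 65.2, 143 and 104 after CCl4 and 12.7, 26.7 and 16.4 after oil. No CCl4 sample came near an oil sample, and the change was 2.61 ± 0.49 (adjusted p = 0.00303) in Alb-R3 and 2.42 ± 0.49 (adjusted p = 0.0113) in Alb-Cre, where it was lost without oil replicate 1 (0.0589) or CCl4 replicate 2 (0.0682). Xrcc2 rose by 2.11 ± 0.37 in Alb-R3 and 2.07 ± 0.37 in Alb-Cre.

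Xrcc3 (ENSMUSG00000021287, chromosome 12, 111803192 to 111813873, minus strand), the partner of Rad51c in the smaller complex, had 128, 128 and 119 normalized counts in Alb-R3 CCl4 and 115, 148 and 119 in Alb-R3 oil, so the treatments overlapped. In Alb-Cre it had 162, 181 and 150.3 after CCl4 and 94.9, 90.8 and 114 after oil, which did not overlap. The change was -0.02 ± 0.20 (adjusted p = 0.964) in Alb-R3 and 0.72 ± 0.20 (adjusted p = 0.0676) in Alb-Cre. Rad51b (ENSMUSG00000059060, chromosome 12, 79297282 to 79814690, plus strand), described after its values were seen, was the most uneven of the members within groups. It had 538, 93.8 and 134 in Alb-R3 CCl4 and 97.4, 111 and 84.0 in Alb-R3 oil, and 112, 301 and 363 in Alb-Cre CCl4 and 99.7, 109.9 and 563 in Alb-Cre oil. The groups overlapped and the change was 0.96 ± 0.70 (adjusted p = 0.387) in Alb-R3 and 0.33 ± 0.70 (adjusted p = 0.874) in Alb-Cre, with 95% intervals of -0.55 to 2.47 and -1.18 to 1.83. Their relative Rad51d, from the list of other recombination genes and also named after its values were seen, did not pass (-0.37 ± 0.18 in Alb-R3 and -0.18 ± 0.18 in Alb-Cre, adjusted p = 0.185 and 0.692), and its sign turned in both with scaling to the non-mitochondrial total (0.05 and 0.02).

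Both translocases, motor proteins that act during strand invasion and on joined DNA, rose in both genotypes. Rad54l (ENSMUSG00000028702, chromosome 4, 116094264 to 116123690, minus strand) had 71.2, 90.8 and 176 normalized counts in Alb-R3 CCl4 and was listed at 0 in all 3 Alb-R3 oil samples. In Alb-Cre it had 102, 139.5 and 101 after CCl4 and 3.15, 0 and 0 after oil. It was thus absent from 5 of the 6 oil lists and present in every CCl4 sample (limma adjusted p = 1e-05 in Alb-R3 and 3.17e-05 in Alb-Cre), and its fitted fold depends on the pseudocount. As it passed the filter on low values only through its CCl4 samples, these p-values are no separate support. Rad54b (ENSMUSG00000078773, chromosome 4, 11558922 to 11615805, plus strand) had 99.6, 185 and 195 in Alb-R3 CCl4 and 34.0, 16.7 and 17.4 in Alb-R3 oil, and 163, 198 and 173 in Alb-Cre CCl4 and 15, 15.4 and 16.3 in Alb-Cre oil. The groups were well apart, with a change of 2.78 ± 0.34 (adjusted p = 0.000151) in Alb-R3 and 3.43 ± 0.34 (adjusted p = 4.71e-05) in Alb-Cre. Rad54l shares 1184 of its 7706 exon bases with Lrrc41 on the opposite strand, and Rad54b 2068 of 5782 with Fsbp on its own strand. The labels do not state whether strand was kept, so the values of Rad54l are uncertain. Strand cannot separate Rad54b from Fsbp, so the values of Rad54b are uncertain too.

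All 5 Fanconi anemia genes rose in both genotypes, with a median of 4.96 in Alb-R3 and 4.20 in Alb-Cre. Fancd2 (ENSMUSG00000034023, chromosome 6, 113531682 to 113597017, plus strand) encodes a subunit of the clamp that is ubiquitinated on crosslinked DNA. It had 54.7, 116 and 179 normalized counts in Alb-R3 CCl4 and 4.38, 1.13 and 2.37 in Alb-R3 oil, and 112, 105 and 112 in Alb-Cre CCl4 and 1.05, 5.83 and 0 in Alb-Cre oil. The treatments were far apart, and the change was 4.96 ± 0.66 (adjusted p = 0.000261) in Alb-R3 and 5.52 ± 0.66 (adjusted p = 0.000171) in Alb-Cre. Fanci (ENSMUSG00000039187, chromosome 7, 79391929 to 79450264, plus strand), the other subunit of the clamp, had 36.1, 122 and 164 in Alb-R3 CCl4 and 1.09, 2.27 and 1.18 in Alb-R3 oil, and 128, 157 and 105 in Alb-Cre CCl4 and 1.05, 0.972 and 3.58 in Alb-Cre oil. Its change of 5.21 ± 0.56 (adjusted p = 5.16e-05) in Alb-R3 and 5.61 ± 0.56 (adjusted p = 4.96e-05) in Alb-Cre was close in size to that of Fancd2. Both subunits of the clamp therefore stood near 0 after oil and at 36.1 normalized counts or more in every CCl4 sample.

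Of the core complex that modifies the clamp, 3 subunit genes were among the members. Fanca (ENSMUSG00000032815, chromosome 8, 123268300 to 123318576, minus strand) had 119.5, 211 and 259 normalized counts in Alb-R3 CCl4 and 3.28, 4.54 and 5.92 in Alb-R3 oil, and 225, 191 and 195 in Alb-Cre CCl4 and 13.7, 7.78 and 9.55 in Alb-Cre oil. The treatments were far apart and the change was 5.10 ± 0.36 (adjusted p = 2.92e-06) in Alb-R3 and 4.20 ± 0.36 (adjusted p = 1.79e-05) in Alb-Cre. Fancb, another core subunit, rose by 3.08 ± 0.37 and 2.53 ± 0.37. Fancm (ENSMUSG00000055884, chromosome 12, 65075603 to 65132058, plus strand), the translocase that anchors the core to DNA, changed least, with 163, 139.9 and 152 in Alb-R3 CCl4 and 71.1, 103 and 102 in Alb-R3 oil, and 141, 185 and 165 in Alb-Cre CCl4 and 84.0, 80.7 and 81.2 in Alb-Cre oil. Its treatments did not overlap, and the change was 0.73 ± 0.22 (adjusted p = 0.0347) in Alb-R3 and 0.98 ± 0.22 (adjusted p = 0.02) in Alb-Cre. The Fancm call was lost in Alb-R3 without any 1 of the Alb-R3 CCl4 libraries, Alb-R3 oil replicate 1 or 2, or Alb-Cre CCl4 replicate 3 (adjusted p 0.0522 to 0.147), and in Alb-Cre without any 1 of the Alb-Cre oil libraries or Alb-Cre CCl4 replicate 2 or 3 (0.0506 to 0.107). Fanca shares 920 of 8761 exon bases with Zfp276 and Fanci 921 of 5774 with Polg, both on the opposite strand.

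Among the genes of end resection, dissolution of joined DNA and unwinding, 4 of 5 rose in Alb-R3 and 5 of 5 in Alb-Cre. Pif1 (ENSMUSG00000041064, chromosome 9, 65587160 to 65595967, plus strand), a helicase that helps synthesis during repair, was listed at 0 in all 6 oil samples. It had 118, 269 and 391 normalized counts in Alb-R3 CCl4 and 211, 32.0 and 203 in Alb-Cre CCl4 (limma adjusted p against oil 9.9e-06 in Alb-R3 and 4.44e-05 in Alb-Cre). Pif1 was present in every CCl4 sample, and Alb-Cre CCl4 replicate 2 was its lowest by far. It passed the filter on low values only through these samples, so its p-values are no separate support, and its fitted fold depends on the pseudocount. Exo1 (ENSMUSG00000039748, chromosome 1, 175880581 to 175913489, plus strand), the exonuclease that resects ends, had 42.5, 64.0 and 97.2 in Alb-R3 CCl4 and 3.31, 5.84 and 6.10 in Alb-R3 oil, and 90.6, 135 and 92.0 in Alb-Cre CCl4 and 0, 3.89 and 1.20 in Alb-Cre oil. It rose by 3.46 ± 0.56 (adjusted p = 0.00109) in Alb-R3 and 5.57 ± 0.56 (adjusted p = 4.71e-05) in Alb-Cre. Eme1, a subunit of the nuclease that cuts joined DNA, rose by 5.28 ± 0.47 and 4.78 ± 0.47.

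Blm and Rmi2 belong to the complex that dissolves double Holliday junctions. Rmi2 (ENSMUSG00000037991, chromosome 16, 10835059 to 10892966, plus strand) had 66.2, 46.2 and 105 normalized counts in Alb-R3 CCl4 and 32.9, 32.7 and 24.7 in Alb-R3 oil, and 75.4, 85.4 and 65.7 in Alb-Cre CCl4 and 18.2, 21.1 and 25.6 in Alb-Cre oil. The treatments were separate in both genotypes, and the change was 1.17 ± 0.34 (adjusted p = 0.0303) in Alb-R3 and 1.76 ± 0.34 (adjusted p = 0.00783) in Alb-Cre. In Alb-R3 it was lost without any 1 of the Alb-R3 oil libraries or without Alb-R3 CCl4 replicate 3 (0.0638 to 0.120). Blm, the helicase of the complex, rose by 1.85 ± 0.39 (adjusted p = 0.0134) in Alb-Cre and changed by 1.11 ± 0.39 (adjusted p = 0.0628) in Alb-R3, where replicate 1 at 65.0 normalized counts lay just under the highest oil sample at 67.1. The Alb-Cre call of Blm was lost without oil replicate 2 or 3 or CCl4 replicate 1 or 2 (0.0505 to 0.0652), and the difference between the genotypes in its response was -0.73 ± 0.54 (adjusted p = 0.873).

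The 5 genes of fork protection and of the end-joining route that backs up recombination all rose in both genotypes, with a median of 2.70 in Alb-R3 and 2.81 in Alb-Cre. Polq (ENSMUSG00000034206, chromosome 16, 37011786 to 37095417, plus strand), the polymerase of that route, had 49.0, 86.3 and 89.4 normalized counts in Alb-R3 CCl4 and 4.38, 0 and 0 in Alb-R3 oil, and 53.8, 64.0 and 85.3 in Alb-Cre CCl4 and 1.05, 2.92 and 2.39 in Alb-Cre oil. It was near 0 in all oil samples and changed by 5.39 ± 0.63 (adjusted p = 9.18e-05) in Alb-R3 and 4.49 ± 0.63 (adjusted p = 0.000645) in Alb-Cre. Tonsl (ENSMUSG00000059323, chromosome 15, 76626002 to 76639958, minus strand), which reads new chromatin behind the fork, had 94.9, 180.2 and 145 in Alb-R3 CCl4 and 33.9, 47.6 and 54.4 in Alb-R3 oil, and 195, 273 and 197 in Alb-Cre CCl4 and 47.2, 44.7 and 65.6 in Alb-Cre oil. Its change was 1.59 ± 0.30 (adjusted p = 0.00316) in Alb-R3 and 2.06 ± 0.30 (adjusted p = 0.000929) in Alb-Cre, and its partner Mms22l rose by 2.70 ± 0.33 and 2.81 ± 0.33. Timeless and Tipin form a complex that travels with the fork, and they rose by unequal amounts. Tipin (ENSMUSG00000032397, chromosome 9, 64281581 to 64305424, plus strand) had 319, 294 and 272 in Alb-R3 CCl4 and 117, 106 and 108 in Alb-R3 oil, and 205, 337 and 305 in Alb-Cre CCl4 and 125, 145 and 90.7 in Alb-Cre oil. It rose by 1.41 ± 0.23 (adjusted p = 0.00123) in Alb-R3 and 1.22 ± 0.23 (adjusted p = 0.00700) in Alb-Cre, while Timeless rose by 3.31 ± 0.30 and 3.44 ± 0.30.

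In the checkpoint the effector kinases rose, while the 2 apical kinases did not pass the test. Chek1 (ENSMUSG00000032113, chromosome 9, 36708482 to 36727065, minus strand), the effector of ATR, had 99.8, 167 and 204 normalized counts in Alb-R3 CCl4 and 3.28, 10.2 and 8.28 in Alb-R3 oil, and 171, 215 and 176 in Alb-Cre CCl4 and 12.6, 8.76 and 8.35 in Alb-Cre oil. The groups were far apart, with a change of 4.31 ± 0.41 (adjusted p = 2.1e-05) in Alb-R3 and 4.12 ± 0.41 (adjusted p = 4.57e-05) in Alb-Cre. Atr (ENSMUSG00000032409, chromosome 9, 95857597 to 95951781, plus strand) had 269, 425 and 481 in Alb-R3 CCl4 and 275, 264 and 267 in Alb-R3 oil, and 443, 356 and 471 in Alb-Cre CCl4 and 278, 255 and 284 in Alb-Cre oil. Alb-R3 CCl4 replicate 1 fell among the oil samples, and the change was 0.50 ± 0.21 (adjusted p = 0.119) in Alb-R3 and 0.63 ± 0.21 (adjusted p = 0.124) in Alb-Cre. Topbp1, the activator of ATR, rose by 1.63 ± 0.26 and 1.83 ± 0.26.

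Atm (ENSMUSG00000034218, chromosome 9, 53439149 to 53536740, minus strand), the kinase that answers double-strand breaks, had 26.2, 112 and 116 normalized counts in Alb-R3 CCl4 and 95, 171 and 58.1 in Alb-R3 oil, and 148, 114 and 159.8 in Alb-Cre CCl4 and 142, 164 and 40.0 in Alb-Cre oil. The groups overlapped, and the change was -0.48 ± 0.61 (adjusted p = 0.642) in Alb-R3, with a 95% interval of -1.80 to 0.84, and 0.50 ± 0.61 (adjusted p = 0.760) in Alb-Cre, with an interval of -0.82 to 1.82. Chek2 (ENSMUSG00000029521, chromosome 5, 110839979 to 110874145, plus strand), its effector, had 100.5, 215 and 194 in Alb-R3 CCl4 and 44.1, 72.1 and 48.9 in Alb-R3 oil, and 196, 182 and 196 in Alb-Cre CCl4 and 90.2, 64.2 and 95.8 in Alb-Cre oil. The treatments did not overlap, and Chek2 rose by 1.57 ± 0.31 (adjusted p = 0.00392) in Alb-R3 and 1.21 ± 0.31 (adjusted p = 0.0407) in Alb-Cre, a call lost without any 1 of the 6 Alb-Cre libraries or Alb-R3 oil replicate 1 or 3 (0.0532 to 0.139). Parp1 (ENSMUSG00000026496, chromosome 1, 180568924 to 180601254, plus strand), which marks broken DNA with ADP-ribose chains, had 809, 1217 and 1210.0 in Alb-R3 CCl4 and 1010.0, 979 and 744 in Alb-R3 oil, and 1165, 1547 and 1339 in Alb-Cre CCl4 and 1076, 1054 and 624 in Alb-Cre oil. The Alb-R3 groups overlapped and the Alb-Cre groups did not, and neither change passed (0.23 ± 0.23, adjusted p = 0.550, in Alb-R3 and 0.59 ± 0.23, adjusted p = 0.210, in Alb-Cre).

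**Figure D2:**
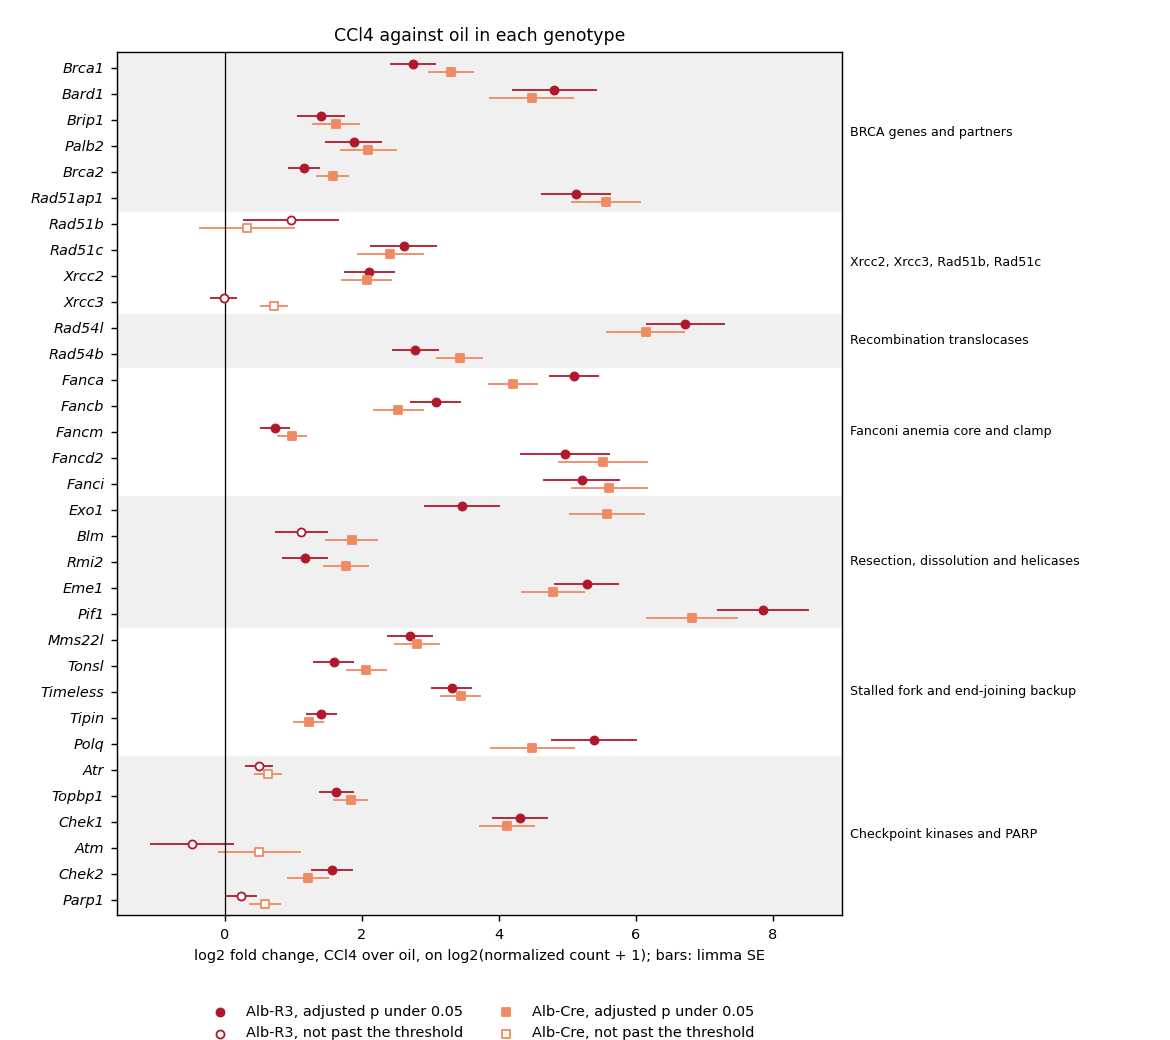
Log2 fold change of CCl4 over oil for each repair gene (rows, by role) in Alb-R3 (circles) and Alb-Cre (squares), on the log2(normalized count + 1) scale, with limma's SE as bars and filled symbols for adjusted p under 0.05. Filled symbols span 0.73 (Fancm) to 7.86 (Pif1) in Alb-R3, and the fitted values of Pif1, and of Rad54l in Alb-R3, depend on the pseudocount because these genes were listed at 0 after oil.

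Calls at the edge of the threshold also moved with the scaling. With quantile normalization, which gives all samples 1 distribution, 22 members passed in Alb-R3 and 23 in Alb-Cre. Lost in that setting were Brca2, Brip1, Fancm, Palb2 and Rmi2 in Alb-R3, and Blm, Brip1, Chek2, Fancm and Rad51c in Alb-Cre. With values scaled to the total without mitochondrially encoded genes 30 passed in each genotype, and the median of all genes then moved by 0.37 in Alb-R3 and 0.20 in Alb-Cre. That setting added Atr in both genotypes (0.91 in Alb-R3 and 0.82 in Alb-Cre), Blm (1.52) and Parp1 (0.65) in Alb-R3, and Xrcc3 (0.91) in Alb-Cre. For both scalings the share of all genes called is not given, so a shift common to all genes is not separated.

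On the FPKM scale, which allows levels of different genes to be compared, the members were low in the hepatocyte samples after oil. The median over the 33 genes was 2.47 FPKM in Alb-R3 CCl4, 2.64 in Alb-Cre CCl4, 0.403 in Alb-R3 oil and 0.373 in Alb-Cre oil. A mean under 1 FPKM was found for 4 members in Alb-R3 CCl4, 3 in Alb-Cre CCl4, 26 in Alb-R3 oil and 25 in Alb-Cre oil. Parp1 had the highest level in each group, at 37.1 ± 12.1, 45.8 ± 4.50, 25.6 ± 5.25 and 26.6 ± 7.52 FPKM (SD, n = 3) in the same order, and Polq the lowest of the CCl4 groups, at 0.466 ± 0.187 in Alb-R3 and 0.415 ± 0.111 in Alb-Cre. Of the summed FPKM of the 33 genes, Parp1 made up 24.6% to 28.6% in CCl4 samples and 35.7% to 54.8% in oil samples. The genes with the lowest levels after oil had the largest changes after CCl4. Over the 33 genes, Spearman's rho between the mean FPKM in Alb-R3 oil samples and the log2 fold change in Alb-Cre, which share no sample, was -0.90, beside -0.19 over all genes tested. Genes in 1 set of libraries are not independent, and a pseudocount ties the size of a fold to the level. The fold also subtracts the Alb-Cre oil level, and the median difference between the genotypes after oil was only -0.10. The 2 measures are therefore tied although they share no sample, and rho is a description.

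**Figure D3:**
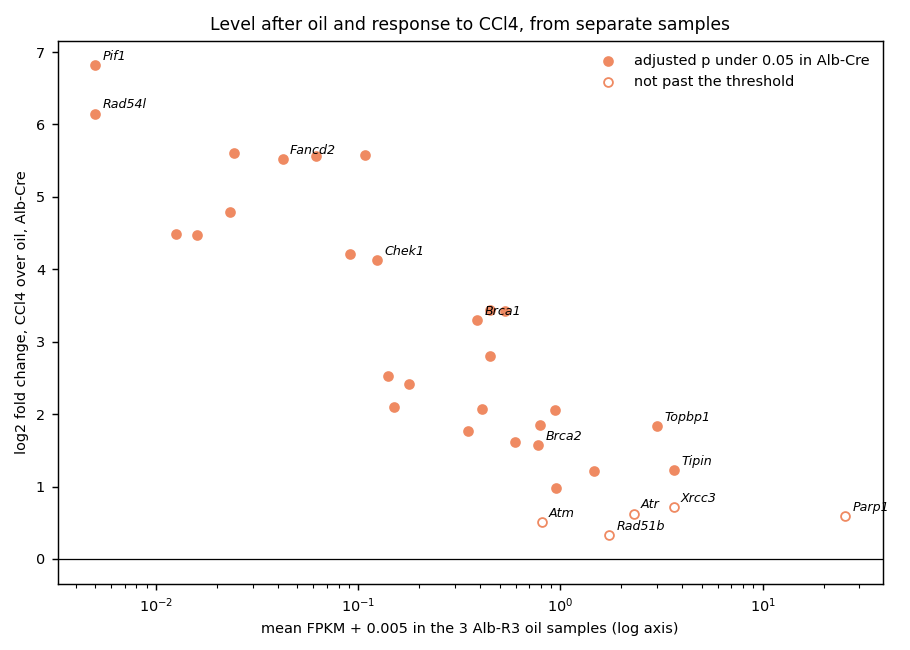
Mean FPKM + 0.005 of each repair gene in the 3 Alb-R3 oil samples (horizontal, log axis) against its log2 fold change of CCl4 over oil in Alb-Cre (vertical), with open circles for the 5 genes that did not pass in Alb-Cre. The points fall from Pif1 and Rad54l at the top left, whose fitted folds depend on the pseudocount, to Parp1 at the right.

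The genotypes were then compared within each treatment. After CCl4, 0 of the 33 genes differed between Alb-R3 and Alb-Cre (limma, adjusted p under 0.05), where 0.173% of all genes did, and 1 had an unadjusted p under 0.05, against 7.77% of all genes. The members were lower in Alb-R3 for 30 genes and higher for 3, and the signs over all genes were not counted. The median difference of the members was -0.28, beside -0.0008 over all genes tested. The median of the members was 0.01 without Alb-R3 CCl4 replicate 1. That library was the lowest of the 6 CCl4 libraries for 25 of the 33 genes, a larger share than the 35.7% of all tested genes. Alb-Cre CCl4 replicate 2 was the highest for 15, and its share over all genes was not counted. The smallest p was that of Tonsl, at -0.69 ± 0.30 (adjusted p = 0.603), whose 3 Alb-R3 values all lay below the 3 Alb-Cre values, and which became -0.44 without Alb-R3 CCl4 replicate 1. The 95% interval of the difference lay within -1 to 1 for 13 genes, and for the rest it reached past a 2-fold difference in at least 1 direction.

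After oil, 0 of the 33 genes passed, where 0.207% of all genes did, and 2 had an unadjusted p under 0.05, against 6.49% of all genes. Fanca was lower in Alb-R3 oil than in Alb-Cre oil by the values given above, without overlap (-1.02 ± 0.36, adjusted p = 0.497), and Exo1 was higher, with overlap (1.43 ± 0.56, adjusted p = 0.595). Without Alb-Cre oil replicate 1 the Exo1 difference was 0.86. With limma's array weights, which give less weight to libraries that deviate, these 2 genes passed (-1.39, adjusted p = 0.0150, and 1.94, adjusted p = 0.0430), and they did so in none of the other alternatives run. The differences after oil rest on a group that includes the library labelled Alb-R3 oil replicate 3, whose Fgfr3 value was the highest. Across the members the difference was positive for 12, negative for 20 and undefined for Pif1, with a median of -0.10, and 11 intervals lay within -1 to 1. The median over all genes tested was 0.004, and their signs were not counted.

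The response to CCl4 itself was not shown to differ between the genotypes for any member, with 0 of 33 genes past the threshold and 0% of all genes called. At an unadjusted p under 0.05 there were 2, Exo1 and Xrcc3, against 7.49% of all genes (1516 genes). The response of Exo1 was smaller in Alb-R3 by 2.12 ± 0.79 on the log2 scale (difference -2.12, adjusted p = 0.539), and that of Xrcc3 differed by -0.73 ± 0.29 (adjusted p = 0.558). The median over the 33 genes was -0.21, beside -0.02 over all genes tested. Without Alb-R3 CCl4 replicate 1 the median of the members was 0.11. Only 3 members had a 95% interval within -1 to 1.

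**Figure D4:**
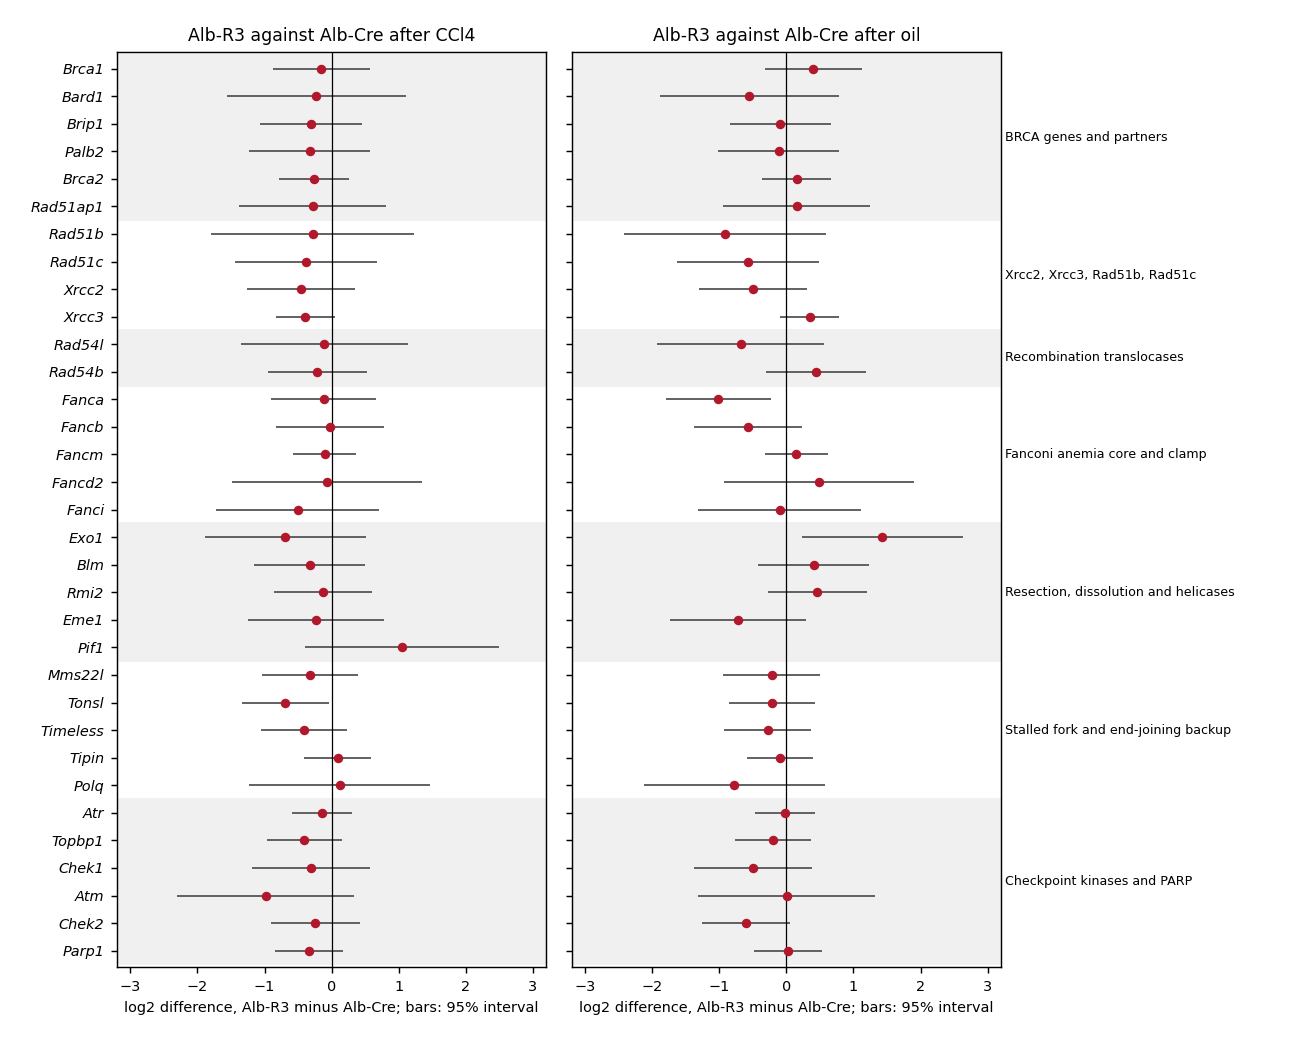
Difference between Alb-R3 and Alb-Cre for each repair gene, in log2 units, after CCl4 (left) and after oil (right), with 95% intervals as bars. Nearly all intervals cross 0, and Pif1 has no point after oil because it was listed at 0 in all 6 samples.

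Likeness between members within the 6 CCl4 libraries was lower without Alb-R3 CCl4 replicate 1, the library that was lowest for 25 of the 33 genes. The median Pearson r of log2 values between pairs of members was 0.661 over 528 pairs, beside 0.00 over pairs of all tested genes, and 0.242 beside 0.00 over the 5 libraries without it. These are descriptions over few samples that share their depth and composition. Over the 6 libraries the closest pairs were Palb2 with Chek1, Mms22l with Chek1 and Palb2 with Fanci (0.99 each). Rad51b (-0.48), Tipin (-0.11) and Pif1 (-0.02) had the lowest median r with the other members over the 6 libraries, and Chek2 (-0.63), Pif1 (-0.33) and Atr (-0.32) over the 5.

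Other genes of the same pathways were counted next, where 10.9% of all tested genes were called higher in Alb-R3 and 3.46% in Alb-Cre. Of 28 other recombination genes tested, 7 rose in Alb-R3 and 6 in Alb-Cre and none fell, with medians of 0.06 and 0.08. The largest change was that of Fignl1, an ATPase of recombination, with 133, 207 and 249 in Alb-R3 CCl4 and 216, 302 and 227 in Alb-Cre CCl4, and 0 to 3.15 in the oil samples. The next largest were Mcm8, a helicase, in Alb-R3 (2.54 ± 0.44) and Zgrf1, also a helicase, in Alb-Cre (2.67 ± 0.33). Of 16 other Fanconi anemia genes, 5 rose in Alb-R3 and 2 in Alb-Cre. They were led by Ube2t, the conjugating enzyme of the core complex (2.84 ± 0.41 and 2.87 ± 0.41), followed by Faap24 in Alb-R3 (1.20 ± 0.35) and Fancg in Alb-Cre (1.13 ± 0.25). Of 26 other checkpoint and fork genes, 16 rose in Alb-R3 and 12 in Alb-Cre, with medians of 0.97 and 0.93, among them Clspn, the adaptor between ATR and CHEK1 (6.34 ± 0.70 and 5.55 ± 0.70), Cdc7, the kinase that fires replication origins (5.18 ± 0.51 in Alb-R3), and Traip, a ubiquitin ligase of the fork (3.61 ± 0.42 in Alb-Cre).

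Lists of repair that does not depend on the sister chromatid were counted in the same way. Of all tested genes, 10.9% rose and 6.92% fell in Alb-R3, and 3.46% rose and 0.988% fell in Alb-Cre. Of 15 genes of non-homologous end joining, 2 rose and 1 fell in Alb-R3 and 1 rose in Alb-Cre, with medians of 0.08 and 0.10. These counts were near the shares of all genes in Alb-R3 and rest on 1 gene in Alb-Cre. Prkdc, its kinase, rose by 0.72 ± 0.18 in Alb-R3 and 0.75 ± 0.18 in Alb-Cre, and in Alb-R3 Tdp1 rose by 0.88 ± 0.25 and Paxx fell by 1.41 ± 0.41. The fall of Paxx did not pass when scaled to the non-mitochondrial total (-0.99) or with quantile normalization (-1.30). Of 27 excision and mismatch repair genes, 5 rose in each genotype and 2 fell in Alb-R3. Neil3, a glycosylase active on single-stranded DNA, rose by 5.94 ± 0.76 in Alb-R3 and 6.39 ± 0.76 in Alb-Cre, and Mutyh, which removes adenine opposite oxidised guanine, by 2.70 ± 0.40 and 2.10 ± 0.40. Nthl1, a glycosylase for oxidised pyrimidines, fell by 0.84 ± 0.25 and Msh3, a mismatch recognition protein, by 0.54 ± 0.15 in Alb-R3, but neither passed when scaled to the non-mitochondrial total (-0.42 and -0.12). The calls of Faap24, Fancg, Prkdc, Tdp1, Paxx, Msh3 and Nthl1 were each lost in 2 to 7 of the 12 fits that left out 1 library. The difference in share between these lists and the 33 genes was not tested.

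**Figure D5:**
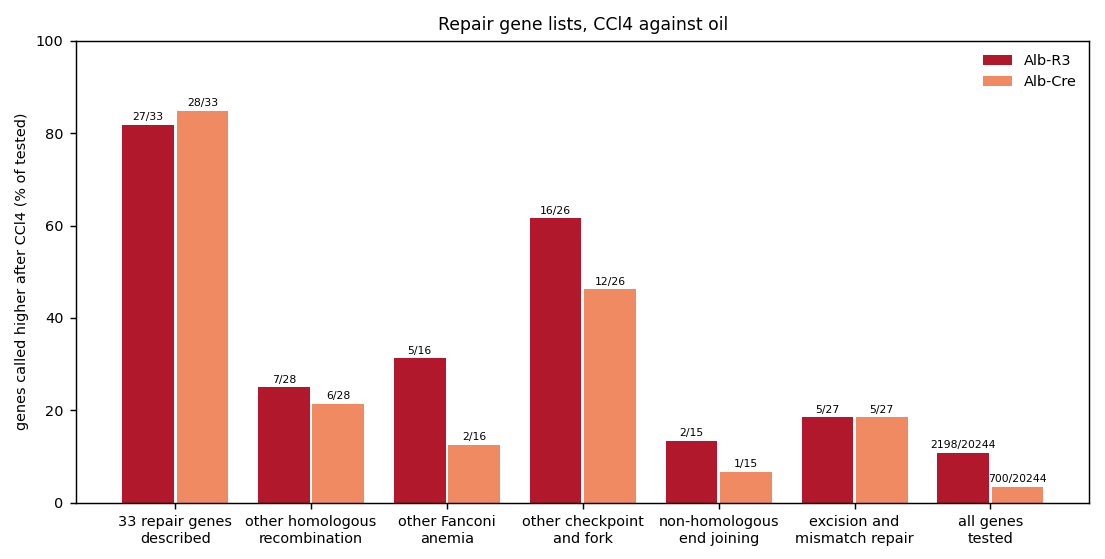
Share of tested genes called higher after CCl4 (vertical, percent) in the 33 repair genes, 5 other repair gene lists and all genes tested, with Alb-R3 to the left of Alb-Cre and the count of called and tested genes above each bar. The 33 genes reach 27 of 33 in Alb-R3 and 28 of 33 in Alb-Cre, and the end-joining list 2 of 15 and 1 of 15.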

How the data were processed

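RNA of 12 hepatocyte samples in 4 groups of 3 was measured. Per the submitters' processing notes, kallisto 0.44.0, edgeR (no version) and the build GRCm38.p6 were used, with no role given. Per the file headers, the authors deposited 2 values per gene and sample: a normalized count, here treated as a signal since 70.1% to 74.1% of low values per sample were whole multiples of 1 read (tolerance 0.02), and FPKM. The labels do not state how they were normalized. The values correspond to 28015100 to 39596400 estimated reads per sample, so the spread between samples, not counting error, limits most genes.

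The design written for this work allowed for either counts or normalized values, and the deposited values were normalized. They were analysed as log2(normalized count + 1), a scale that makes changes of low genes look smaller, with limma 3.58.1 in R 4.3.3 (mean-variance trend, 4 groups in 1 model, 8 residual degrees of freedom). The fit was checked on simulated data. A value of 1 or more in 3 or more samples was required, which left 20244 genes for the 5 comparisons, with Benjamini-Hochberg adjustment over all of them in each and a threshold of 0.05. The members, lists, rules and alternatives were chosen with earlier results of these data known. Values in every sample are given for Brca1, Brca2, Rad54l, Fancd2, Chek1, Pif1, Atm, Atr and Parp1, for the member of largest and smallest change in each role, and for the 3 of smallest p in each genotype comparison. Other repair lists are named by their 2 largest called changes in each direction. Of the other recombination and the excision repair lists, 1 gene each is not reported here. Gene positions are 1-based, from GENCODE M21 on GRCm38, and promoters from RefSeq on GRCm38.p6. Alternatives were 2 other scalings, no trend, 2 filters, pseudocounts of 0.1 and 5, a replicate block, a fit to the groups compared, array weights, FPKM with a pseudocount of 0.1, and leaving out each sample.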

Additional observations from a re-analysis of the deposited data

How the results depend on the processing

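The count of members past the threshold after CCl4 was 22 to 30 in Alb-R3 and 23 to 30 in Alb-Cre over the alternatives that kept all samples, 24 to 28 and 22 to 30 when 1 library was left out, and none was called lower in any. The share of all genes called is not given beside these ranges, so they describe the members alone. Between genotypes the count was 0 in each comparison and setting, including every fit that left out 1 library (0 to 0), except with array weights after oil, where it was 2 (Fanca and Exo1). The cause was not tested. The sign turned for genes near 0. In Alb-R3, Xrcc3 was -0.02 and became 0.39 scaled to the non-mitochondrial total, 0.24 with FPKM and 0.0068 with array weights, and Atm became 0.00035 with array weights. In Alb-Cre, Paxx became 0.041 with array weights. Rad51d became 0.017 in Alb-Cre and 0.046 in Alb-R3 scaled to the non-mitochondrial total, and 0.050 in Alb-Cre with FPKM. When 1 library was left out, Xrcc3 ranged from -0.086 to 0.093 and Atm from -0.86 to 0.21 in Alb-R3, and Atm from -0.13 to 0.87 and Rad51b from -0.11 to 1.13 in Alb-Cre. Over all pairs of groups, samples with the same number did not deviate together (median r -0.09 over 18 pairs, lowest -0.394, highest 0.447). Between the Alb-Cre and Alb-R3 oil groups, same-number pairs had r of 0.06, 0.36 and 0.45, and different-number pairs ran from -0.43 to 0.24. With 3 samples per group these values cannot settle whether the numbers pair the samples. With the replicate number as a block 25 members passed in Alb-R3 and 27 in Alb-Cre, without Fancm (adjusted p = 0.0569) and Rmi2 (0.0529) in Alb-R3 and Chek2 (0.0651) in Alb-Cre, and 0 differed between genotypes. In the fit to the groups compared, Brip1, Fancm and Rmi2 did not pass in Alb-R3 (0.0591, 0.0913 and 0.0844), and Chek2 did not pass in Alb-Cre without the trend (0.0659). With 3 samples per group, the spread between them limits the precision, and values near 0 after oil limit it for the largest changes. The likeness of members without Alb-R3 CCl4 replicate 1 was added after seeing the data.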
